A study of Mus musculus with 6 samples.

Results

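Proneural bHLH factors are transcription factors of the basic helix-loop-helix class that commit progenitors to a neuronal fate and then guide their differentiation. The family described here consists of 7 genes, *Neurog2*, *Atoh7*, *Neurod4*, *Neurod1*, *Neurod2*, *Neurod6* and *Olig2*, and its members were taken as every probe set of the array that is annotated to exactly 1 of these symbols. That gave 13 probe sets of 45037 that are not controls, and 7 of the 18193 genes that some probe set names alone. Probe sets whose mean log2 value fell under the 20th percentile (4.74, called the filter level below) were not tested, and 10 of the 13 probe sets and 5 of the 7 genes passed. *Neurod6*, *Olig2* and 1 of the 3 probe sets of *Neurod4* did not.

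Expression was measured on 6 Affymetrix mouse arrays in RGCs of C57BL/6J embryos at E16.5 (E16 in the sample titles). Rhodamine dextran was placed on the severed optic tract and travelled back to the cell bodies during 2 h, and labeled living cells were then sorted by FACS. Ipsilateral RGCs (3 arrays), which project to the same side of the brain, came from the retina on the side of the dye, and contralateral RGCs (3 arrays), which cross at the optic chiasm, from the opposite retina. Each of 3 rounds gave 1 sample of either kind from the pooled retinas of 2 litters, so an array is a pool of embryos and not 1 animal. All embryos were of the same strain and received the same dye, and no unlabeled or untreated cells were arrayed. The rounds used for the arrays were those in which qPCR had shown *Zic2* to be enriched in the ipsilateral sample.

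Values are log2 intensities, and a difference is ipsilateral minus contralateral on that scale. It was tested with limma, and a call required a 2-fold difference and an adjusted p under 0.05, by the method of Benjamini and Hochberg across the 36029 probe sets that passed the filter. The brightest probe set stands for a gene unless another is named. Because probes differ in how they hybridize, levels of different genes or probe sets are not ranked against each other. The array medians ran from 5.80 to 6.70 and followed the round more than the side. The 11 RGC markers analysed all passed the filter, from *Thy1* at 8.66 to *Nefl* at 13.32 in the contralateral mean, and all 11 were lower in the ipsilateral array of every round, with a median difference of −0.44 and 0 called.

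In the retina, *Neurog2* and *Atoh7* act early, in progenitors that are about to leave the cell cycle, and *Atoh7* is required for most RGCs to form. *Neurod4* and *Neurod1* follow in precursors and are known for amacrine and photoreceptor fates. *Neurod2* and *Neurod6* belong to later neurons, of the forebrain and of some amacrine cells, and *Olig2* marks a subset of progenitors and, elsewhere, the oligodendrocyte lineage. All of them bind DNA as dimers with E proteins and are held back by Id proteins. The early ones, such as *Neurog2*, take part in Notch signaling, through which a committed cell restrains its neighbors.

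These dimers recognize the E-box, the 6 letters CANNTG, and several proneural genes are known to act on each other and on themselves through such sites. The 250 bases before the RefSeq transcription start of the 3 members with the largest differences are therefore shown (build GRCm38.p6, 5′ to 3′ on the strand of the gene), with each E-box in capitals. They lie at chr10:63099535-63099784 (plus strand) for *Atoh7*, chr10:130280255-130280504 (minus strand) for *Neurod4* and chr2:79456637-79456886 (minus strand) for *Neurod1*.
Atoh7: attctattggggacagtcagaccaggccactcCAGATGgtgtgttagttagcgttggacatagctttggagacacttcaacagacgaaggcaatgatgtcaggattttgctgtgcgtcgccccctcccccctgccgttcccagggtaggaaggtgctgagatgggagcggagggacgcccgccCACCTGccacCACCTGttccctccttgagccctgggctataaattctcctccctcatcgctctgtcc
Neurod4: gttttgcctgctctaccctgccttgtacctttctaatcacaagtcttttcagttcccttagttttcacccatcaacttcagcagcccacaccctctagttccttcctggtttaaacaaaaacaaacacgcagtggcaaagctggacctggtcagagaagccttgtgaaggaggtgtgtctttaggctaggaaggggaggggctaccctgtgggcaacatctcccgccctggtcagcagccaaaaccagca
Neurod1: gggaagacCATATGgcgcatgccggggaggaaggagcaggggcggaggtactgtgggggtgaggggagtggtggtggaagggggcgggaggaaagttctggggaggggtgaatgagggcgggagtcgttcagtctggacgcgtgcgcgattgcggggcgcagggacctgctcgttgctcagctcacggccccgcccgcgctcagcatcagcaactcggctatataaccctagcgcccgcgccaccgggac

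The E-box reads as CANNTG on either strand, so 1 search covers both. The *Atoh7* window held 3, a CAGATG starting 218 bases before the start and CACCTG at 67 and 57 bases, a closely spaced pair next to the start. The *Neurod1* window held 1, a CATATG at 242 bases, and the *Neurod4* window held none. All 7 members had a window in the RefSeq table, and 4 held an E-box, with 3 in *Neurod2* and 2 in *Neurod6*. Of 27025 promoters of the same length, 1 for each gene, 66.0% held a CANNTG and 17.1% a CACCTG or its complement CAGGTG, so E-boxes were no more frequent in the members than elsewhere. A match is a stretch of letters and not a known site, and the windows of the members with a large difference do not share one: *Neurod4* has none here and *Atoh7* has 3.

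The family showed a split. *Neurod4* was higher in ipsilateral RGCs by 2.59, which is 6.04-fold, and passed the test, *Atoh7* was higher by 2.04 (4.11-fold) and *Neurod1* by 1.17 without passing it, and *Neurog2* differed by 0.60. *Neurod2*, *Neurod6* and *Olig2* differed by less than 0.2. Thus, 1 of the 7 genes, of which 5 were tested, was called higher, against 0.358% of the 15346 genes tested. None was called lower. Among the 13 probe sets, of which 10 were tested, 1 was called higher, against 0.244% of all those tested. With a 2-fold difference and a limma p under 0.05 before adjustment, 3 genes were higher (*Atoh7*, *Neurod1* and *Neurod4*) and none lower. Counted as probe sets, 3 of the family met this rule, against 740 of the 36029 tested that were higher by it. A difference of 2-fold or more toward ipsilateral RGCs was found for the same 3 genes, against 2.75% of all genes tested. The ipsilateral array was the higher one in every round for the 5 genes that passed the filter, against 17.6% of all genes that passed, and the groups did not overlap for 4, *Atoh7*, *Neurod1*, *Neurod4* and *Neurog2*, against 3.84%. The median difference was 0.60 over the 7 genes (0.58, 0.26 and 1.096 in rounds 1, 2 and 3), which include *Neurod6* and *Olig2* below the filter level, and 1.17 over the 5 that passed. It was −0.01 over all genes tested. Because the members were chosen with earlier results of these data known, these shares and medians describe the family and are no test of it. In such pooled cells, a larger share of cells that make a transcript and more transcript in each cell cannot be told apart.

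**Figure D1:**
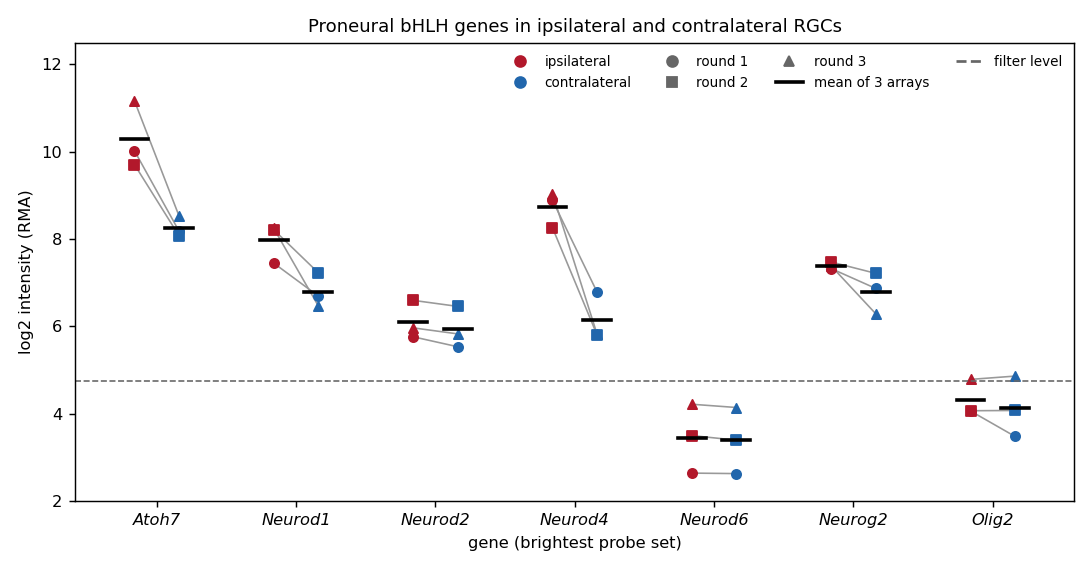
Log2 intensity (RMA) of the 7 proneural bHLH genes at their brightest probe set on each array, with ipsilateral (red) and contralateral (blue) arrays of a round joined by a line, a bar at the mean of 3 arrays and a dashed line at the filter level of 4.74. The ipsilateral arrays of *Atoh7*, *Neurod1*, *Neurod4* and *Neurog2* all lie above the contralateral ones, and *Neurod6* and most arrays of *Olig2* lie below the filter level.

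*Neurog2*, which drives cell cycle exit and is expressed in progenitors that give rise to several retinal cell types, is represented by a single probe set. Its log2 intensity was 7.32, 7.47 and 7.38 in ipsilateral RGCs of rounds 1, 2 and 3, and 6.87, 7.21 and 6.29 in contralateral RGCs. The ipsilateral arrays were nearly the same in all rounds and the contralateral ones ranged more widely, with the lowest in round 3. All ipsilateral values lay above all contralateral values, by a gap of 0.11. The means were 7.39 ± 0.08 and 6.79 ± 0.47 (SD, n = 3 each), and the difference of 0.60 (SE 0.40) had a limma adjusted p of 1.0 and an unadjusted p of 0.157. Within rounds, *Neurog2* differed by 0.46, 0.26 and 1.096, and with the replicate number as a block its adjusted p was 0.296.

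*Atoh7*, the factor that makes progenitors competent to become RGCs, was measured by a pair of probe sets that gave different answers. At the brighter one, 1422929_s_at, log2 intensity was 10.02, 9.71 and 11.17 in ipsilateral RGCs and 8.18, 8.07 and 8.53 in contralateral RGCs. Every ipsilateral value exceeded every contralateral one, by at least 1.18, and round 3 had the highest value on both sides. The means were 10.30 ± 0.77 and 8.26 ± 0.24 (SD, n = 3 each). The difference of 2.04 (SE 0.45) had an unadjusted limma p of 0.000493 and an adjusted p of 0.130, so *Atoh7* was not called. The paper, by its own test, lists 1422929_s_at as more than 2-fold higher in ipsilateral RGCs. By in situ hybridization it also reports *Atoh7* mRNA, there named Math5, in Zic2-positive RGCs, mainly peripheral ones. With the replicate block the SE was 0.23 and the adjusted p 0.0653. *Atoh7* was 1.84, 1.63 and 2.64 higher in rounds 1, 2 and 3. Its call depended on the processing: without ipsilateral replicate 1 or 2 the adjusted p was 0.0388 or 0.0234, and it was also below 0.05 under 4 of the alternative settings given in the closing section.

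At the other *Atoh7* probe set, 1450796_at, the values were 6.57, 7.48 and 6.84 in ipsilateral and 6.70, 7.08 and 6.89 in contralateral RGCs. These overlap, and round 2 was highest on both sides. All 6 values were above the filter level. The difference was 0.07 (SE 0.41, adjusted p 1.0, limma) with a 95% interval from −0.80 to 0.95, and it was −0.13, 0.40 and −0.05 in the 3 rounds.

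*Neurod4*, a factor of retinal precursors known for amacrine and bipolar fates, had the largest difference of the family. At probe set 1436694_s_at log2 intensity was 8.89, 8.26 and 9.04 in ipsilateral RGCs and 6.78, 5.80 and 5.82 in contralateral RGCs. The lowest ipsilateral value was 1.47 above the highest contralateral value, which came from round 1. The means were 8.73 ± 0.42 and 6.13 ± 0.56 (SD, n = 3 each). *Neurod4* rose in ipsilateral RGCs by 2.59 (SE 0.43, limma adjusted p 0.0246), and the 95% interval ran from 1.66 to 3.53. With the replicate block it also passed (SE 0.24, adjusted p 0.0455). The differences within rounds 1, 2 and 3 were 2.10, 2.46 and 3.23. The call was lost without replicate 3 of either side, with a difference of 2.44 in both cases and adjusted p of 0.131 (ipsilateral) and 0.111 (contralateral), and after quantile normalization (2.57, adjusted p 0.143) or median centring (2.55, adjusted p 0.110).

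The other *Neurod4* probe sets gave smaller differences. At 1418054_at the values were 6.43, 6.88 and 5.78 in ipsilateral and 5.98, 5.75 and 4.41 in contralateral RGCs, the last of them below the filter level. The ipsilateral array was the higher one in each round, by 0.44, 1.13 and 1.36, but the groups overlapped, and the difference of 0.98 (SE 0.49) had an adjusted p of 1.0 (0.185 with the block, limma). At 1418055_at all 6 arrays lay below the filter level, between 2.67 and 4.11, so that it gives no measure of the gene. The mean of the 2 probe sets of *Neurod4* that passed the filter differed by 1.79 and was not called (limma adjusted p 0.166). The values of 1418055_at moved with the round on both sides, from 2.87 and 2.67 in round 1 to 4.11 and 4.07 in round 3.

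**Figure D2:**
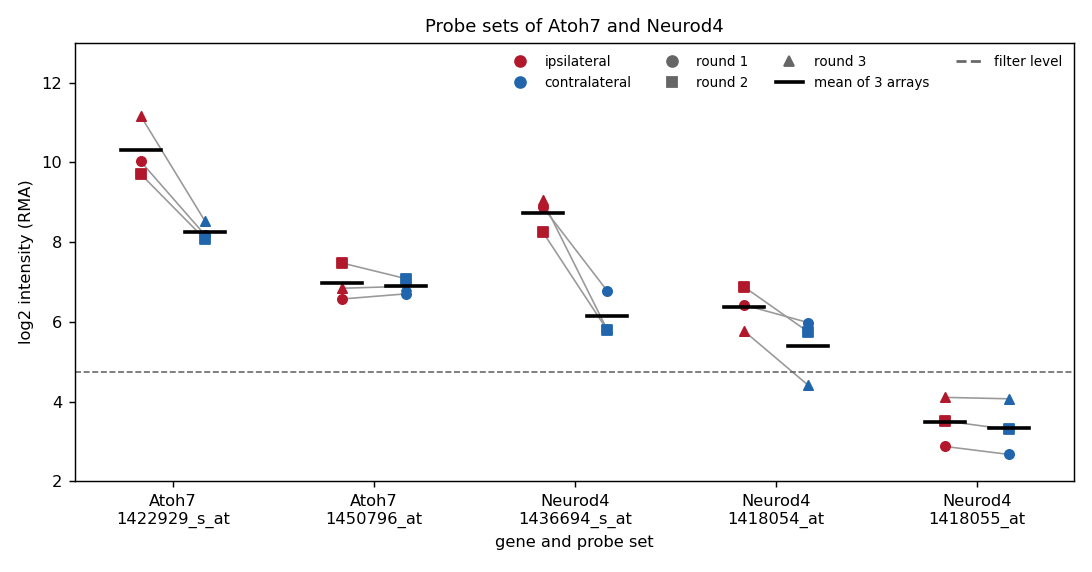
Log2 intensity (RMA) on each array at the 2 probe sets of *Atoh7* and the 3 of *Neurod4*, with arrays of a round joined by a line, a bar at the mean of 3 arrays and a dashed line at the filter level. In each gene 1 probe set separates the sides, by 2.04 in *Atoh7* and 2.59 in *Neurod4*, while the others differ by 0.07 in *Atoh7* and by 0.98 in *Neurod4*, whose remaining probe set lies below the filter level.

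How far probe sets of a gene disagreed was tested on the difference between them within each array. In *Atoh7*, 1422929_s_at exceeded 1450796_at by 1.97 more in ipsilateral than in contralateral RGCs (1.97, 1.24 and 2.69 in the rounds). This had an exact permutation p of 0.1, the smallest that 3 arrays against 3 allow. In *Neurod4*, 1436694_s_at exceeded 1418054_at by 1.61 more on the ipsilateral side (1.66, 1.32 and 1.86), with an exact permutation p of 0.2. The 8 such pairs in the family were adjusted together, and the lowest adjusted exact permutation p was 0.16. This test does not use the pairing by round and cannot reach 0.05 with 3 arrays against 3, so it neither shows nor excludes a difference between probe sets. The larger difference in both genes came from the probe set whose name ends in _s_at, which on these arrays marks a probe set whose probes match more than 1 transcript. Probe sequences were not used here, and which transcripts the probes match was not tested.

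*Neurod1*, which promotes differentiation of precursors and later maintains photoreceptors, differed in the same direction at both of its probe sets. At 1426412_at log2 intensity was 7.45, 8.21 and 8.24 in ipsilateral RGCs and 6.69, 7.22 and 6.46 in contralateral RGCs. The groups did not overlap, and the gap was 0.22. The means were 7.97 ± 0.45 and 6.79 ± 0.39 (SD, n = 3 each), and the difference was 1.17 (SE 0.42, limma p 0.0142 unadjusted, 1.0 adjusted and 0.158 adjusted with the block). *Neurod1* differed by 0.75, 0.99 and 1.78 in rounds 1, 2 and 3. The paper, by its own test, lists 1426412_at as more than 2-fold higher in ipsilateral RGCs. The probe set 1426413_at gave 7.26, 7.85 and 7.77 in ipsilateral and 7.02, 7.26 and 6.40 in contralateral RGCs. Here the lowest ipsilateral and the highest contralateral value were equal at 7.26, and the rounds differed by 0.24, 0.59 and 1.36, so that this probe set followed the order of the first and was 0.44 lower in its difference (exact permutation p 0.1, adjusted 0.16).

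*Neurod2*, a factor of differentiated neurons, showed no difference beyond the spread. At its brightest probe set, 1435411_at, the values were 5.76, 6.59 and 5.96 in ipsilateral and 5.53, 6.45 and 5.82 in contralateral RGCs. They overlap almost fully, and round 2 was the highest on both sides. The difference was 0.17 (SE 0.43, adjusted p 1.0, limma), the 95% interval ran from −0.74 to 1.08, and the rounds gave 0.23, 0.14 and 0.14. The other probe sets of *Neurod2* differed by 0.00 and 0.18, and 1444362_at was above the filter level on only 2 of 3 arrays of each side. Without the block, all 3 *Neurod2* intervals allow differences of close to 2-fold. With the replicate block they were narrower, from −0.18 to 0.51 at 1435411_at, −0.36 to 0.36 at 1418995_at and −0.20 to 0.56 at 1444362_at.

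The probe set of *Neurod6* was below the filter level on all 6 arrays, at 2.63 to 4.21 in ipsilateral and 2.62 to 4.14 in contralateral RGCs. Each ipsilateral value lay within 0.11 of the contralateral value of its round, and no fold is given. *Olig2* was measured at 4.06, 4.06 and 4.78 in ipsilateral and 3.47, 4.07 and 4.86 in contralateral RGCs. Only the arrays of round 3 were above the filter level, 1 on each side, the groups overlapped, and the round differences were 0.58, −0.01 and −0.08. Neither gene was tested.

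**Figure D3:**
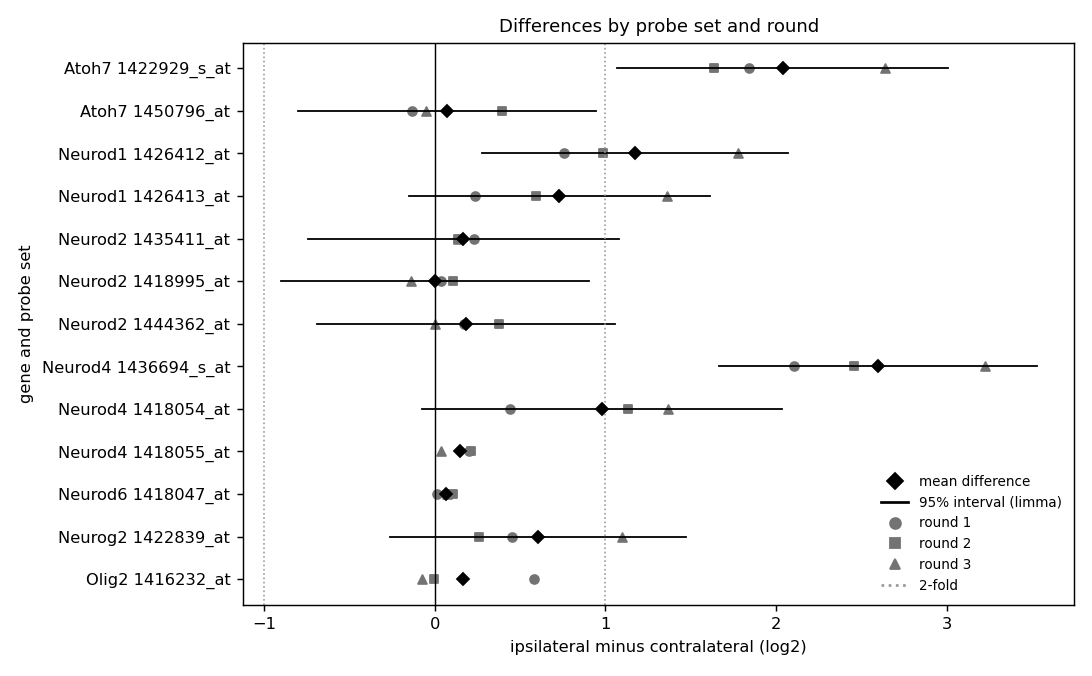
Ipsilateral minus contralateral log2 difference at all 13 probe sets, with the mean (diamond), each round (circle, square and triangle for rounds 1, 2 and 3), the 95% interval from limma where the probe set was tested and dotted lines at 2-fold. The intervals of *Atoh7* 1422929_s_at, *Neurod1* 1426412_at and *Neurod4* 1436694_s_at lie above 0, and round 3 gives the highest value in each of them and in *Neurog2*.

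The partners and inhibitors of the family were described by lists of genes, of which 0 members were called in either direction. Of the 3 E proteins, the dimer partners, *Tcf4* differed by 1.29 (limma adjusted p 0.893), *Tcf12* by 0.59 and *Tcf3* by −0.10. Contralateral *Tcf3* ranged widely, with an SD of 1.56. The 4 Id genes, whose products bind E proteins but not DNA, were all higher in the ipsilateral array of each round, with a median of 0.82, and *Id2* differed by 1.78 (adjusted p 0.334), *Id3* by 1.25 and *Id4* by 0.40.

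Of 6 Hes and Hey genes, most of which code for repressors of proneural genes, 5 passed the filter. Their median difference was 0.24, and *Hes5*, a target of Notch, had the largest at 1.51 (limma adjusted p 0.792), followed by *Hes6*, which is known to counteract *Hes1* and is itself a target of proneural factors, at 0.58 and *Hey1* at 0.24. *Hes1* differed by 0.10. Of 12 Notch receptors, ligands and modulators, 8 were higher in all 3 rounds, and the median was 0.68. The receptor *Notch2* differed most, with 8.97 ± 1.12 and 6.20 ± 0.91 (SD, n = 3 each), a difference of 2.77 and an adjusted p of 0.102 (limma). The receptor *Notch1* differed by 1.25, and the modifier *Lfng* by 1.22, and the ligand *Dll1*, a known target of proneural factors, by 0.70.

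Other neural bHLH factors did not follow *Neurod4*. Of 9 analysed, 6 passed the filter, with a median of −0.12. The largest difference was −0.29, in *Nhlh2*, and *Nhlh1* and *Bhlhe23* differed by 0.21 and −0.17. Genes that proneural factors are known to switch on in precursors were mixed: of 12, 6 were higher and 5 lower in the ipsilateral array of every round. *Mfng* (1.05), *Btg2* (1.0), which slows division of precursors, and *Dll1* were on the higher side. *Cbfa2t3* (−0.52), *Sox4* (−0.48) and *Dcx* (−0.36), the last a microtubule protein of young neurons, were on the lower side.

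Most RGC genes known to lie downstream of *Atoh7* did not differ in its direction. Of the 10 analysed, 0 were higher and 8 were lower in ipsilateral RGCs in all 3 rounds, against 20.2% of all genes tested that were lower in all 3, with a median of −0.33 (−0.31, −0.20 and −0.43 in the rounds). The largest differences were those of the transcription factors *Barhl2* (−0.58), *Ebf3* (−0.48) and *Pou4f1* (−0.45), each with an adjusted p of 1.0 (limma), and *Isl1* differed by −0.35. *Eya2* alone had a positive difference, of 0.15. Lower values were not particular to this list: the 11 RGC markers had a median of −0.44 and were all lower in every round. *Pou4f1*, *Isl1*, *Gap43* and *Nefl* are on both lists. None of the 10 passed an unadjusted limma p of 0.05 together with a 2-fold change at its brightest probe set. For *Pou4f1* the paper lists another probe set as more than 2-fold higher in contralateral RGCs.

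**Figure D4:**
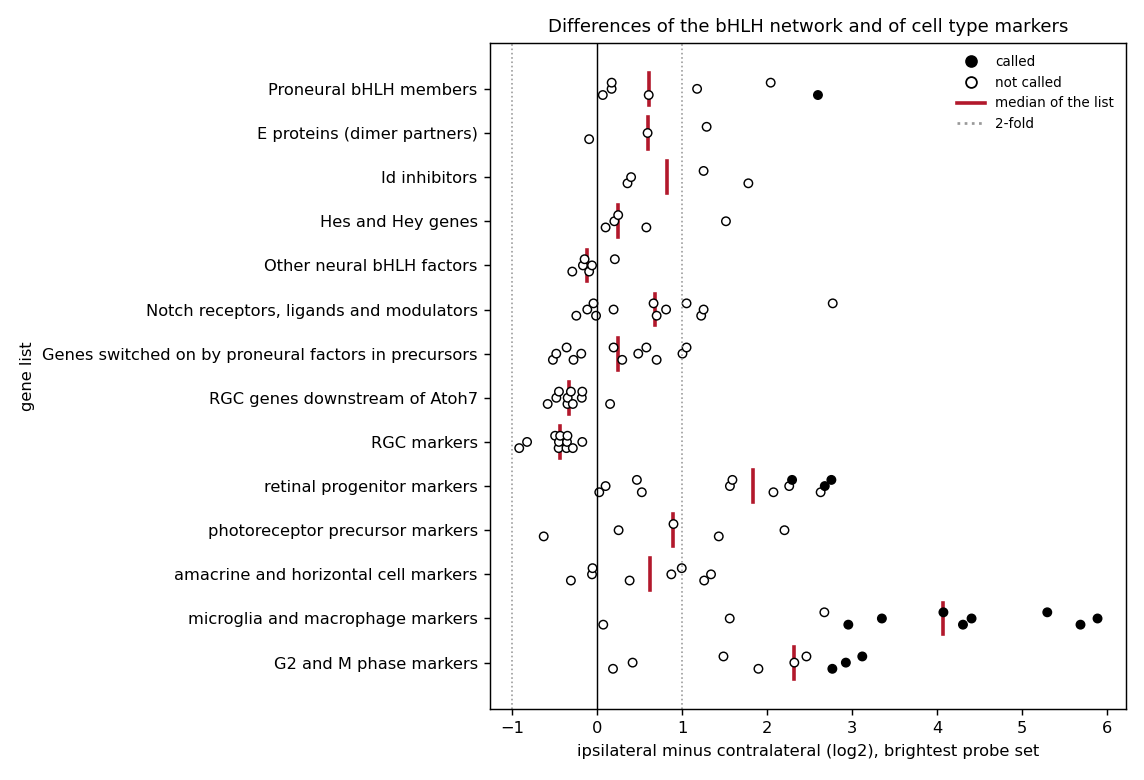
Ipsilateral minus contralateral log2 difference of each gene at its brightest probe set, by list, for the 7 proneural bHLH members, and for genes of the other lists that passed the filter. Filled circles were called, red bars are medians and dotted lines mark 2-fold. The members have a median of 0.60 with the 2 genes below the filter level and of 1.17 without them, RGC genes downstream of *Atoh7* of −0.33, and progenitor, G2 and M phase and microglia markers of 1.83, 2.32 and 4.07.

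Markers of other cell types moved with the same contrast. Of 12 retinal progenitor markers, 3 were called higher in ipsilateral RGCs (*Sox2*, *Sfrp2* and *Fabp7*; 0 with the replicate block), 10 were higher in every round, and the median was 1.83 (1.33, 1.76 and 2.54 in rounds 1, 2 and 3). Their summed intensity, on the log2 scale, was 13.17 to 14.20 in ipsilateral and 12.08 to 12.20 in contralateral RGCs. Of 9 genes of the G2 and M phases, 3 were called (*Aspm*, *Cenpf* and *Spc25*; 0 with the block), and the median was 2.32 (1.46, 1.65 and 3.73). The progenitor and the G2 and M phase medians, like *Atoh7*, *Neurod4*, *Neurod1* and *Neurog2*, were highest in round 3. This was not particular to these 2 lists. Median differences of photoreceptor precursor markers were 0.71, 0.71 and 1.26 in rounds 1, 2 and 3, and those of E proteins 0.93, −0.33 and 1.35. The median of microglia and macrophage markers was highest in round 1, and those of the Id and Notch lists in round 2.

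Photoreceptor precursors express *Neurod1*, and amacrine precursors *Neurod4*. Of 7 photoreceptor precursor markers, 5 passed the filter and 0 were called, with a median of 0.90. *Otx2* differed by 2.20 (limma adjusted p 0.140) and *Crx* by 1.43, *Prdm1* by 0.90 and *Thrb* by 0.25, while *Rxrg* differed by −0.63 and was lower in every round. *Nrl* and *Rcvrn* did not pass the filter. The summed log2 intensity of the photoreceptor markers was 9.39 to 9.95 in ipsilateral and 8.75 to 9.02 in contralateral RGCs. Of 9 amacrine and horizontal cell markers, 8 passed and 0 were called, with a median of 0.62 and summed values of 10.70 to 11.51 and 10.70 to 10.96. Much of the contralateral sum came from *Onecut1*, at 10.03 to 10.49, which is also on the list downstream of *Atoh7*. Microglia and macrophage markers differed most: 8 of 11 were called higher (7 with the block), the median was 4.07 (4.51, 4.23 and 3.14 in the rounds), and their summed log2 intensity was 12.59 to 13.28 against 8.49 to 9.36. For oligodendrocytes and astrocytes, 5 of 6 markers passed with a median of 0.08, and 0 were called. Of 4 genes listed for forebrain neurons, 3 passed and 0 were called, and they went different ways. *Eomes* differed by −0.84 and was lower in every round, as the RGC markers were, *Emx1* differed by 0.09 and *Fezf2* by 0.99. Whether *Eomes* stands for forebrain neurons in these samples was not tested. Of the 4 ipsilateral RGC markers, *Zic2* was called, at 2.50 (limma adjusted p 0.0246), but not with the block (adjusted p 0.0739). Because the arrayed rounds were chosen by *Zic2* enrichment, its difference is no independent check. The others were not called, and their groups overlapped: *Slc6a4* differed by 2.00 (limma adjusted p 0.736), *Foxd1* by 0.67 and *Ephb1* by 0.06. The part of these other cell types in the differences of the proneural genes was not tested.

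The genes whose pattern over the 6 arrays was most like that of a member were found by Pearson's r after each array was centred on its median. The values are a description over 6 arrays of 3 pairs, and the nearest genes among all those tested were taken. For *Neurod4* they were *Map7* (r = 0.997), a microtubule-associated protein, *Nhsl2* (0.989) and *Ift80* (0.988), a protein of cilia. *Map7* itself was called, with a difference of 2.34 (SE 0.43, limma adjusted p 0.0386). For *Atoh7* they were *Pde3b* (r = 0.997), *Tram1* (0.996) and *Shisa2* (0.994), which differed by 0.99, 0.77 and 1.81, and none of them was called. For *Neurod1* they were *Zfp36l1* (0.993), *Tcf7l2* (0.982), a transcription factor of Wnt signaling, and *Tead2* (0.979). *Zfp36l1*, which codes for a protein that shortens the life of mRNAs, was called at 2.83 and *Tcf7l2* at 2.71 (limma adjusted p 0.0156 and 0.0154). *Neurog2* was nearest to *Frem1* (0.978), *Diaph3* (0.978) and *Pdc* (0.969), and *Neurod2* to *Tmem39a* (0.984), *Ctse* (0.974) and *Psmb8* (0.971), none of them called.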

How the data were processed

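The authors made the deposited log2 values with RMA in Affymetrix Expression Console 1.1 from amplified cDNA, 1 value for each probe set. Whether all arrays were normalized together, and the genome build, are not given in the sources used here. Of 45101 probe sets, 64 controls were left out, and genes were named from the platform annotation where it gives 1 symbol (34945 probe sets; 932 have several and 9160 none). Differences between the sides were fitted without a block by lmFit and eBayes of limma 3.58.1, run in R 4.3.3, and the procedure was tested on simulated data. The number of arrays limits the precision.

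Rounds pair the samples, since both sides of a round had the same preparation in the paper. Arrays with the same number had correlations of 0.511, 0.541 and 0.612 in their deviations from the group means, and others from −0.353 to −0.207. Members, lists and tests were chosen with earlier results of these data known. Named genes are all members, the 3 of each pathway list with the largest difference and some others picked after their values were seen, and the 3 nearest patterns of each member that passed the filter. Alternatives were the replicate block, other filters, normalizations, variance estimates and adjustments, the mean of a gene's probe sets and leaving out each array. Several listed genes were not analysed here.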

Additional observations from a re-analysis of the deposited data

How the results depend on the processing

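Of 160 values recomputed under alternative settings, 115 were classed as the same and kept their sign. For the tested members, the same meant an unchanged side of the threshold, and for counts of calls an unchanged count. For the median difference it meant a shift within the spread between rounds. For *Neurod6* and *Olig2* it meant a shift no larger than their smaller group SD. *Atoh7*, *Neurod1*, *Neurod4* and *Neurog2* were higher in ipsilateral RGCs in 68 of 68 of their recomputed values. That count is not a test of direction. Several settings change only the test or the filter and leave the difference as it was. The sides of these genes do not overlap at the brightest probe set, so leaving out an array cannot turn their direction. With the replicate block the count of called genes was still 1, *Neurod4* (adjusted p 0.0455), and no call changed. *Neurod4* was not called after quantile normalization (2.57), median centring (2.55), with the unmoderated test (2.59, adjusted p 1.0) or with the mean of all its probe sets (1.24, adjusted p 0.700), which takes in the one below the filter level. It was not called either with the mean of those that passed, a setting chosen after seeing the data (1.79, adjusted p 0.166), in which *Atoh7* differed by 1.06. In these settings 0 member genes were called (0 probe sets in the first 3). *Atoh7* passed at the 50th percentile filter (2.04, adjusted p 0.0382), with an intensity trend and robust estimation (adjusted p 0.00414), with array weights (2.53, adjusted p 2.16e-05) and where p was adjusted only among probe sets with a 2-fold difference (adjusted p 0.00343). *Neurod1* passed in the last pair of settings (1.66 with array weights and 1.17). The called genes then numbered 2, 2, 3 and 3, and the called probe sets 2, 2, 5 and 3. The cause was not tested.

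Array weights also raised the calls over all probe sets from 88 to 1001 higher and from 0 to 148 lower, adjustment only among 2-fold probe sets gave 715 and 80, trend and robust estimation 179 and 0, and the unmoderated test 0 and 0. When 1 array at a time was left out, 0 to 2 member genes and 0 to 2 member probe sets were called. The difference ranged from 1.605 to 2.34 for *Atoh7*, 1.01 to 1.43 for *Neurod1*, 2.43 to 2.92 for *Neurod4* and 0.35 to 0.82 for *Neurog2*, and from −0.0760 to 0.43 for *Neurod2*, −0.32 to 0.47 for *Neurod6* and −0.16 to 0.53 for *Olig2*. *Neurod2* turned to −0.0760 without ipsilateral replicate 2 and to −0.03 without contralateral replicate 1. *Neurod6* and *Olig2*, which were not tested, changed sign in 4 of these values. Leaving out an array breaks a round: the median difference over all probe sets, −0.02 with every array, was −0.26 without contralateral replicate 1 and 0.22 without ipsilateral replicate 1. Arrays carry no count of transcripts, and 3 of 13 probe sets lay too near background to be measured.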
